A study of Mus musculus with 53 samples.

Results

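The genes described here encode the enzymes that add methyl groups to histone lysines and arginines and those that take them off lysines. They were chosen by gene name, as protein-coding genes of the Kmt2, Kmt5, Kdm1 to Kdm8, Setd, Setmar, Prmt, Ehmt, Suv39h, Ezh, Nsd, Dot1l, Ash1l and Smyd families, without Kdm5d. The name rule found 60 genes among the annotated genes, and 59 of them had a value among 37991 gene IDs. Prmt1 could not be matched by its ID and is named only. The series holds 53 mouse libraries in 19 groups and was designed around the effect of neuronal activity on histone turnover and, through it, on gene expression. The values used are those of embryonic cortex at day E16.5 from C57bl/6 mice, labelled as a control without stimulation, with 3 libraries that the authors deposited as 1 mean per gene. The other 50 libraries, from cultured neurons and astrocytes and from adult hippocampus, are not analysed here, so no condition is compared with another. The labels do not say whether a cortex library came from 1 embryo or from pooled tissue. Because a mean column hides the spread over libraries, values are given without SD and differences without a p-value.

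Methylation of a histone lysine changes what binds to the nucleosome without changing its charge, and its meaning depends on the residue. Methylation of H3K4 marks promoters and enhancers, H3K36 and H3K79 lie in the bodies of transcribed genes, H3K27 is the mark of Polycomb repression, and H3K9 and H4K20 mark heterochromatin, with H4K20 also tied to replication and mitosis. Most lysine methyltransferases carry a SET domain, Dot1l does not, and the demethylases use either flavin (the Kdm1 enzymes) or iron in a JmjC domain (the other Kdm enzymes). In the developing cortex this machinery is best known for Polycomb control of the timing of neurogenesis, and several of its genes are known from human neurodevelopmental disorders. Because bulk tissue was sequenced, fewer cells that express a gene and less RNA per cell cannot be told apart.

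The deposited unit is RPKM, a read count divided by library size and by gene length, and that length is taken here to be the whole gene with its introns. Low values of multi-exon genes fell within 0.5% of the worth of a single read in 658 of 761 cases (86.5%) when multiplied by the gene span, against 35 of 1010 (3.47%) when multiplied by exon length. The worth of a read was itself found from the values multiplied by span, with no separate search for exon length. The contrast therefore favours the span and cannot decide the length by itself. Read numbers and values per kilobase of exon rest on the span being that length. The same steps gave library totals of 51.3, 64.8 and 71.6 M reads, 188 M reads in all. A level is therefore given in RPKM as deposited and also per kilobase of exon, which is the more usual scale and takes all counted reads to lie in exons. An estimated 1000 reads or more lay behind 55 of the 59 genes, with 95% counting intervals whose half-width was at most 5.90% of the value. The intervals are not symmetric and reach further up than down. The exceptions were Kdm8 (7.07%), Setmar (8.51%), Smyd1 (16.8%) and Kdm4d (35.2%). These intervals cover counting error only, not differences between embryos.

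The tissue carried the markers of its label. All 5 markers of cortical progenitors, all 3 of intermediate progenitors and all 6 of cortical neurons reached 1 RPKM, led by Fabp7 at 102, Neurog2 at 29.7 and Neurod6 at 194 RPKM. None of 6 microglial, 4 meningeal or 6 muscle markers did, with the highest at 0.942 (C1qa), 0.436 (Foxc1) and 0.298 RPKM (Acta1). Markers of interneurons (3 of 5, Dlx1 at 17.8), oligodendrocyte lineage (2 of 4, Olig1 at 6.50), endothelium (1 of 4, Cldn5 at 17.3) and red blood cells (2 of 4, Hba-a1 at 53.6 RPKM) reached it in part. Per kilobase of exon, all 5 interneuron and all 4 endothelial markers reached 1, and no meningeal or muscle marker did. Of the microglial markers, Cx3cr1 stood at 10.2, C1qa at 2.62, Csf1r at 1.92 and P2ry12 at 1.31 on that scale, with Tmem119 and Aif1 below 1. What these cell types add to the values below was not tested.

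Most of the enzymes were expressed, at moderate levels. At 1 RPKM or more were 41 of 59 (69.5%), against 31.6% of 20230 protein-coding genes, and none of the 59 was listed at 0. At 0.1 RPKM or more were 56 of 59 (55.9% of protein-coding genes), and at 10 RPKM or more there was 1, Ehmt2 (4.5% of protein-coding genes). On the exon scale (RPM, the read count over library size, per kilobase of exon), 57 of 59 reached 1 (54% of protein-coding genes) and 28 reached 10 (20.8%). The median was 1.60 RPKM against 0.213 RPKM over protein-coding genes, a difference of 2.44 on the log2(RPKM + 0.1) scale. Among genes at 0.1 RPKM or more on both sides, the difference was 0.49. Of the protein-coding genes, 3090 were listed at 0. The quartiles were 0.849 and 3.31 RPKM. All 59 together held 0.700% of the counted reads.

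**Figure D1:**
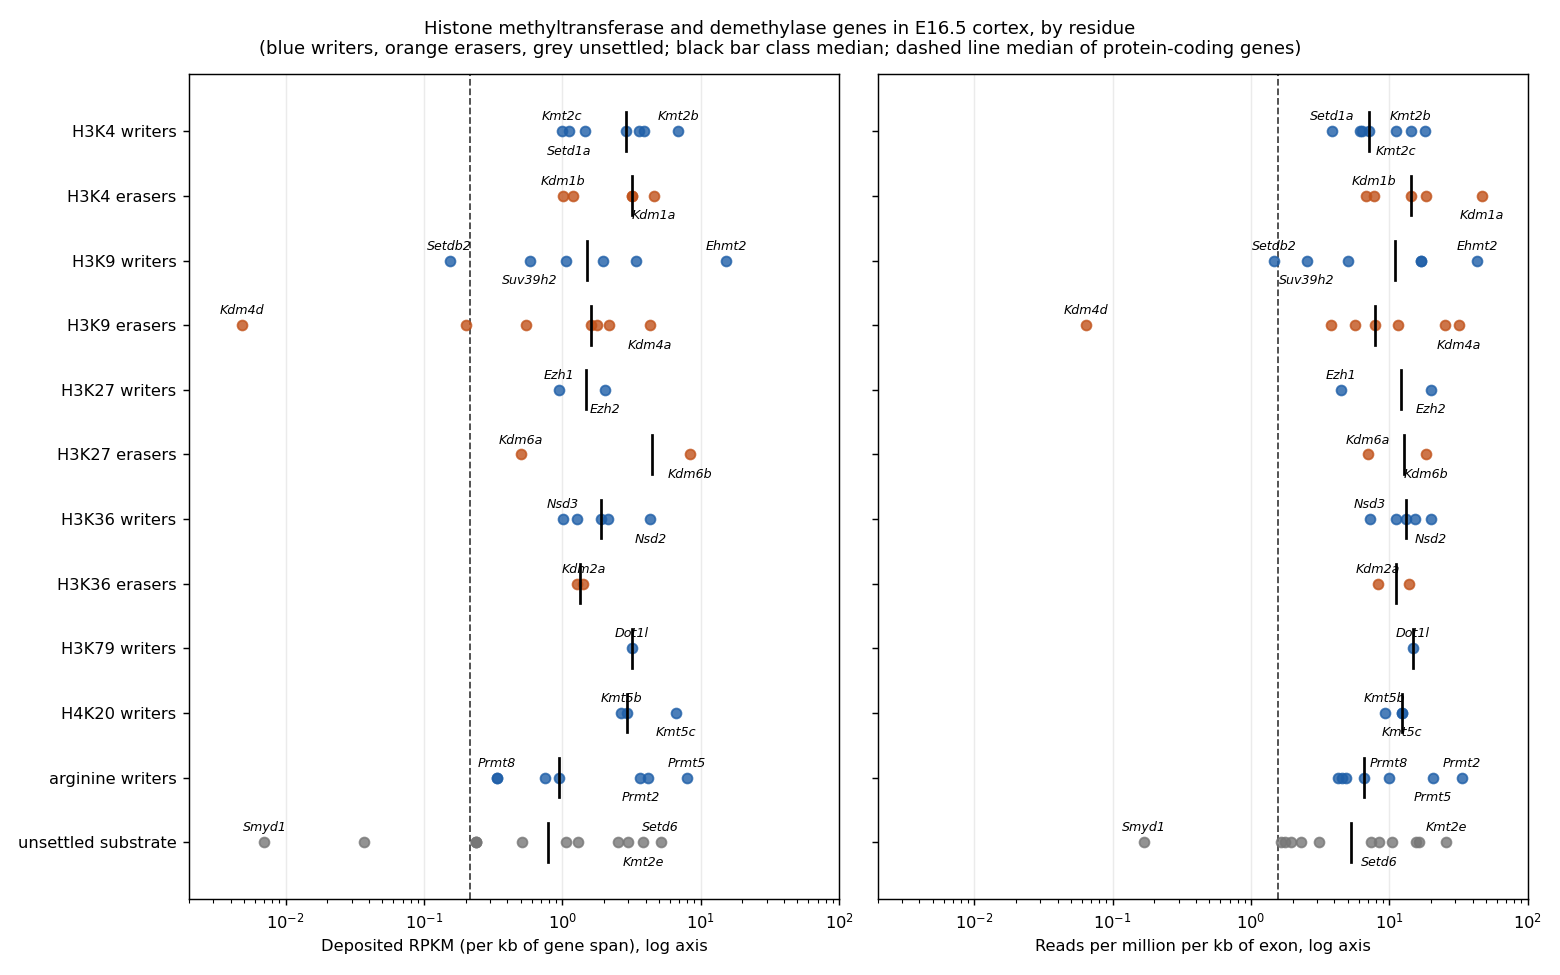
Level of each of the 59 genes (points) by the residue its enzyme acts on, with deposited RPKM on the left and RPM per kilobase of exon on the right, both on log axes; blue points are writers, orange points erasers and grey points genes of unsettled substrate. Black bars are class medians and the dashed line is the median of protein-coding genes, 0.213 RPKM on the left and 1.57 per kilobase of exon on the right. Every class median lies to the right of that line, and Kdm4d and Smyd1 lie far to its left. Kdm4a, Kdm4b, Kdm4c and Kdm7a act on a further residue and are shown under H3K9 only.

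Promoters of these genes held, in the median, more CpG dinucleotides than those of all protein-coding genes. RefSeq promoter windows, 250 bases before to 50 after a gene's start, were matched by symbol for 46 of the 59 genes, with coordinates on GRCm38.p6, and the window with most CpG was taken where a gene had several. The median was 28.5 CpG dinucleotides (CG) per window against 16 over 15586 protein-coding genes. At least 20 CG were present in 33 of 46 (71.7%), against 42.4%, and at least 10 in 44 of 46 (95.7%), against 64.2%. The 2 below that were Setd5 (1 CG) and Smyd1 (3 CG). The 250 bases before the start are shown for the highest gene on each scale, Ehmt2 and Kdm1a, for the Polycomb pair Ezh2 and Ezh1, which differ in level, and for the near-silent Smyd1, each 5′ to 3′ on the gene's strand with every CG in capitals. Ehmt2 lies at chr17:34898720-34898969 (plus strand), Kdm1a at chr4:136602724-136602973 (minus), Ezh2 at chr6:47595031-47595280 (minus), Ezh1 at chr11:101226464-101226713 (minus) and Smyd1 at chr6:71262282-71262531 (minus).
Ehmt2: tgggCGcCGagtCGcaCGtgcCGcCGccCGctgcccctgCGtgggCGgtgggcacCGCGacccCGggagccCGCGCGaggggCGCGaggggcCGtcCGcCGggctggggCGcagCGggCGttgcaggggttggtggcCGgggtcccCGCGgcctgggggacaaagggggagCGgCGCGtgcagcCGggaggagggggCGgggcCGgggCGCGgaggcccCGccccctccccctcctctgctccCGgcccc
Kdm1a: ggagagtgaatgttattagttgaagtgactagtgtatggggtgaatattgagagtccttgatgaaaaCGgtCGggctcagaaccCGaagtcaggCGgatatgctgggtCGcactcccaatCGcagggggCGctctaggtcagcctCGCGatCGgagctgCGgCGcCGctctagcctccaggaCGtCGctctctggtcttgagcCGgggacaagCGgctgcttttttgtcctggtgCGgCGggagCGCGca
Ezh2: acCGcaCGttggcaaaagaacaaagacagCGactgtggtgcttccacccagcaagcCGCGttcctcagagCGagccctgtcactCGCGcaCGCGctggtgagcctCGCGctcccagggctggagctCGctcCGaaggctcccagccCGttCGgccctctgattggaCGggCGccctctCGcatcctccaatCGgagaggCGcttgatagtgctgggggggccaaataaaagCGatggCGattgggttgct
Ezh1: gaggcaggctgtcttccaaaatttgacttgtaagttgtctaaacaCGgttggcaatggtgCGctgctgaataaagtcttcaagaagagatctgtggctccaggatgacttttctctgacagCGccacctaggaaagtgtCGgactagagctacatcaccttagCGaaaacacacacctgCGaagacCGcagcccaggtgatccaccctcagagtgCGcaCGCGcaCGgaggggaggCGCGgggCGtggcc
Smyd1: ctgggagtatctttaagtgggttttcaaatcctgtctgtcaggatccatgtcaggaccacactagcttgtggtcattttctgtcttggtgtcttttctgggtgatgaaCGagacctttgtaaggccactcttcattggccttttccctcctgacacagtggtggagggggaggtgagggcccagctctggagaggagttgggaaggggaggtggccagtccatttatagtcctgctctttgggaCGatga

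These stretches hold 36 CG in Ehmt2, 21 in Kdm1a, 23 in Ezh2, 14 in Ezh1 and 2 in Smyd1, with 84% of bases G or C in Ehmt2 and 51.6% in Smyd1. Ezh2, the higher of the Polycomb pair, has more CG before its start than Ezh1, but other paralogs went both ways. Per window, the higher gene had more CG in Ehmt2 over Ehmt1 (40 against 34) and in Kdm1a over Kdm1b (29 against 26). The higher gene had fewer in Setdb1 over Setdb2 (15 against 29) and in Kdm4a over Kdm4c (13 against 28). Across protein-coding genes, 2.87% of those with 0 to 4 CG per window reached 1 RPKM, 12.8% with 5 to 9, 40.8% with 10 to 19, 50.1% with 20 to 29 and 51.4% with 30 or more. Of the enzymes, 1 of 2 with 0 to 4 CG (Setd5, at 2.52 RPKM), 7 of 11 with 10 to 19, 7 of 13 with 20 to 29 and 14 of 20 with 30 or more reached it. Kdm4d, with 17 CG, stood at 0.00482 RPKM and 0.0638 per kilobase of exon. Kdm7a, with the most CG of the 46 genes, 65, stood at 0.546 RPKM and 3.81 per kilobase of exon. The word TATAAA was present on either strand in 2 of 46 windows, Prmt2 and Smyd1 (4.35%, against 11.6% of protein-coding genes). CCGCCC was present in 30 of 46 (65.2% against 52.1%), CCAAT in 19 (41.3% against 37.8%), CCGGAA in 12 (26.1% against 21%) and the NRF1 palindrome in 0 (1.5% of protein-coding genes). A word match is a description of the letters and not of a bound site.

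**Figure D2:**
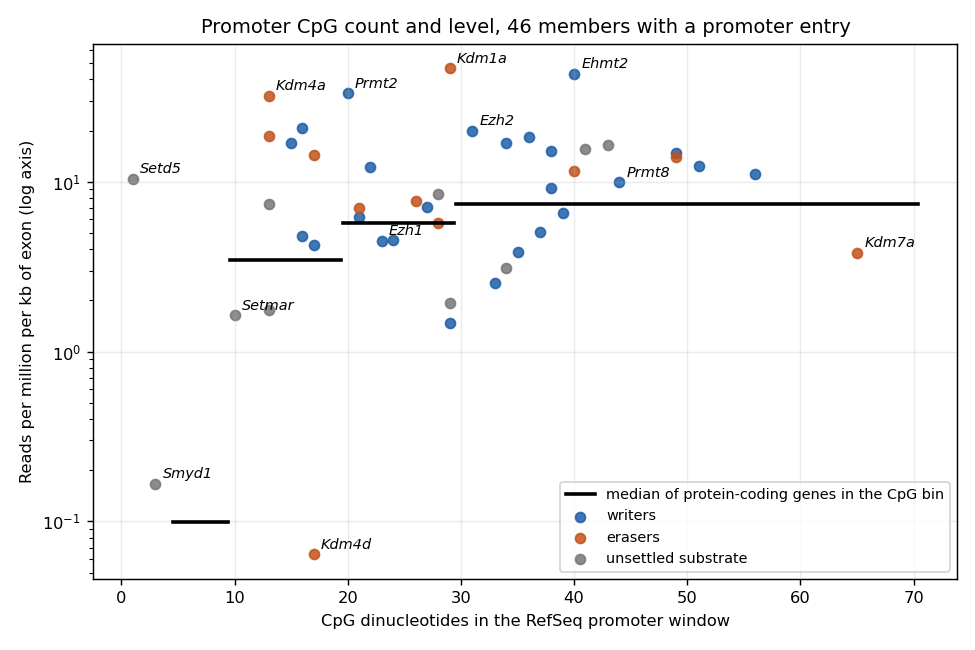
Level in RPM per kilobase of exon (log axis) against the number of CpG dinucleotides in the RefSeq promoter window for 46 genes, coloured as writers, erasers and genes of unsettled substrate; black lines are the medians of protein-coding genes within CpG bins, the last bin holding 30 or more, with no line for 0 to 4, where the median is 0. Most points lie above 10 CpG, Ehmt2 and Kdm1a are highest, and Smyd1 (3 CpG) and Kdm4d (17 CpG) are lowest.

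The H3K4 methyltransferases all lay between 0.995 and 6.88 RPKM. Kmt2b, an MLL-type enzyme of promoters, was the highest at 6.88 RPKM (ENSMUSG00000006307), followed by its relative Kmt2a, which keeps Hox genes active, at 3.90 RPKM. Per kilobase of exon their order turned, 18.2 for Kmt2a and 14.2 for Kmt2b, since the span of Kmt2a is 77.9 kb and that of Kmt2b 19.9 kb. The enhancer enzymes Kmt2d and Kmt2c stood at 3.59 and 0.995 RPKM and turned in the same way, to 7.11 and 11.1 per kilobase of exon. Of the SET1 enzymes, which place most of the trimethyl mark at promoters, Setd1b stood at 2.89 and Setd1a at 1.12 RPKM. Exons of another annotated gene, Gm49388, cover 52.3% of the exon bases of Setd1a on the same strand, so its value is uncertain. Setd7, a monomethyltransferase that also acts on other proteins, stood at 1.47 RPKM.

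The H3K4 demethylases were led by Kdm1a (LSD1), the flavin enzyme of the CoREST complex, at 4.62 RPKM (ENSMUSG00000036940). With exon length, Kdm1a was the highest of all 59 genes, at 46.5. Its paralog Kdm1b stood at 1.02 RPKM and 7.75 per kilobase of exon, so Kdm1a was 4.53-fold above it as deposited (95% counting interval 4.43 to 4.64) and 6.01-fold per kilobase of exon. Of the JmjC enzymes that remove the trimethyl mark, Kdm5c, an X-linked gene mutated in intellectual disability, stood at 3.17 RPKM and Kdm5b at 3.16 RPKM. These 2 differed by less than the counting error as deposited (Kdm5b over Kdm5c 0.998, interval 0.983 to 1.01). On other scales they differed, with a ratio of 0.776 per kilobase of exon and 1.81 with no length. The RefSeq span of Kdm5c is 45.9 kb, against 41.5 kb in GENCODE, and with RefSeq spans the ratio per kilobase of exon was 0.679. Kdm5a was the lowest of the 3 on both scales, at 1.19 RPKM and 6.78 per kilobase of exon.

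Ehmt2 (G9a), which places the dimethyl mark on H3K9 in euchromatin, was the highest of the 59 genes as deposited, at 15.2 RPKM (ENSMUSG00000013787), above 97.1% of protein-coding genes. It was second per kilobase of exon, at 43.2. Its partner Ehmt1 (GLP), with which it forms a heteromer, stood at 1.05 RPKM, 14.4-fold lower. Ehmt1 has a span of 130 kb against 15.6 kb for Ehmt2, and per kilobase of exon the ratio was 2.57, with Ehmt1 at 16.8. Setdb1, which silences retroelements through KRAB zinc finger proteins and Trim28, stood at 3.43 RPKM and its relative Setdb2 at 0.153 RPKM, 22.4-fold apart and 11.4-fold apart per kilobase of exon. The pericentric heterochromatin enzymes stood at 1.96 (Suv39h1) and 0.580 RPKM (Suv39h2), and per kilobase of exon at 5.06 and 2.53. In Suv39h1, 14.6% of the exon bases lie under exons of a gene on the other strand. Whether counting used strand is not stated for this series.

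Among H3K9 demethylases, Kdm4a, which also acts on H3K36, stood at 4.30 RPKM and 32.0 per kilobase of exon. Kdm4b and Kdm4c, which act on the same residues, stood at 1.60 and 0.203 RPKM. Per kilobase of exon Kdm4b reached 25.1, so Kdm4a was 2.69-fold above it as deposited and 1.28-fold with exon length, while Kdm4c stayed behind both, at 5.69. Kdm4d was the lowest of the 59 genes, at 0.00482 RPKM (interval 0.00333 to 0.00673), an estimated 34 reads in all libraries. Kdm4d is a gene with high expression in testis. The monomethyl and dimethyl erasers Kdm3a and Kdm3b stood at 2.17 and 1.79 RPKM, and Kdm7a, which acts on H3K9 and H3K27, at 0.546 RPKM. Exons of a gene on the other strand cover 24.6% of the exon bases of Kdm3b.

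The Polycomb methyltransferase Ezh2, known from dividing progenitors, stood at 2.04 RPKM (ENSMUSG00000029687) and Ezh1, known from cells that no longer divide, at 0.945 RPKM. Ezh2 was above Ezh1 on both scales, by 2.16-fold in RPKM and by 4.44-fold with exon length, at 19.9 against 4.49. The demethylases of the same residue were further apart as deposited. Kdm6b (JMJD3) stood at 8.40 RPKM, second of the 59, and Kdm6a (UTX), an X-linked subunit of the Kmt2c and Kmt2d complexes, at 0.503 RPKM, a ratio of 16.7. With exon length they stood at 18.3 and 7.04, a ratio of 2.60. The RefSeq span of Kdm6b is 21.9 kb, against 15.2 kb in GENCODE, and would put it at 26.4 per kilobase of exon.

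The H3K36 methyltransferases all reached 1 RPKM. Nsd2 stood at 4.33, Nsd1, the Sotos syndrome gene, at 2.12, Setd2, which places the trimethyl mark behind RNA polymerase II, at 1.90, Ash1l at 1.28 and Nsd3 at 1.01 RPKM. All 5 are long genes, with spans from 77.3 to 129 kb, and per kilobase of exon they lay between 7.22 (Nsd3) and 19.9 (Nsd2). Nsd2 had the most reads of the 59 genes, at 334 RPM. The H3K36 erasers Kdm2a and Kdm2b, the latter a subunit of a Polycomb complex at CpG islands, stood at 1.42 and 1.27 RPKM and at 8.24 and 14.0 per kilobase of exon. Dot1l, the H3K79 methyltransferase, stood at 3.19 RPKM and 14.8 per kilobase of exon.

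Of the H4K20 enzymes, Kmt5c, which places the trimethyl mark in heterochromatin, stood at 6.63 RPKM, Kmt5a, which places the monomethyl mark during mitosis, at 2.93 and Kmt5b at 2.67 RPKM. Kmt5c was 2.48-fold above Kmt5b as deposited, but Kmt5b spans 50.9 kb and Kmt5c 7.40 kb. With exon length the 3 genes lay at 12.3 (Kmt5c), 12.4 (Kmt5a) and 9.22 (Kmt5b).

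The arginine methyltransferases fell into a higher and a lower set as deposited. Prmt5, the main symmetric dimethyltransferase, which also acts on splicing proteins, stood at 7.91 RPKM (ENSMUSG00000023110), Prmt6, which methylates H3R2, at 4.14 and the weakly active Prmt2 at 3.66 RPKM. Prmt7, a monomethyltransferase, stood at 0.952, Prmt9 at 0.753, the cytosolic Prmt3 at 0.338 and Prmt8, a membrane-anchored relative of Prmt1 that is expressed in neurons, at 0.337 RPKM. Per kilobase of exon Prmt2 led, at 33.2, with Prmt5 at 20.7 and Prmt8 at 9.96, while Prmt6 stood at 4.82, since exons take up 4.20 of its 4.89 kb. Exons of a gene on the other strand cover 23.4% of the exon bases of Prmt6. The median over 7 arginine enzymes was 0.952 RPKM against 2.08 RPKM over 24 lysine methyltransferases, a difference of -1.05 on the log2(RPKM + 0.1) scale. It was -0.83 per kilobase of exon and thus short of the 2-fold difference used here as a limit. The difference also rests on which genes are in the class. With Carm1 (Prmt4) added, an arginine methyltransferase that the name rule leaves out, at 1.74 RPKM, it was -0.65. Prmt3, which acts on a ribosomal protein, and Prmt9, which acts on a splicing factor, were kept in the class. Without them the arginine median would be that of Prmt2, 3.66 RPKM, above the lysine median. Per kilobase of exon it would be that of Prmt8, 9.96, below the lysine median of 11.7. Prmt1 has no value here. A Prmt1 below or above all 7 would give a difference between -1.20 and -0.13 on the log2(RPKM + 0.1) scale, negative at both ends. The arginine median would lie between 0.853 and 2.31 RPKM, against 2.08 RPKM for lysine. The order could thus turn in RPKM, but not on the log2 scale. Over 8 genes, a median of log2 values is not the log2 of the median.

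Another 12 genes carry the names of these families, but their histone substrate is unsettled or their known substrate is another protein. Setd6, which methylates an NF-kappaB subunit, stood at 5.13 RPKM, Kmt2e, with a SET domain that lacks settled activity, at 3.85, Smyd5 at 2.99 and Setd5, a gene of intellectual disability, at 2.52 RPKM. Setd3, the actin histidine methyltransferase, stood at 1.29 and Smyd2 at 1.06 RPKM. Setd4 (0.507), Setmar (0.240), Kdm8 (0.237), Smyd4 (0.236) and Smyd3 (0.0370) were all under 1 RPKM. Smyd3 has the longest span of the 59 genes, 566 kb, and stood at 2.28 per kilobase of exon. Smyd1, a gene of heart and skeletal muscle, stood at 0.00702 RPKM beside muscle markers of 0.00111 (Ckm) to 0.298 RPKM (Acta1). The GENCODE and RefSeq spans of Setd6 and Smyd1 differ, and Setd6 stood at 8.44 or 15.8 and Smyd1 at 0.167 or 0.0746 per kilobase of exon with the first or the second. Exons of a gene on the other strand cover 30.0% of the exon bases of Smyd2.

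Writers and erasers of all lysines had medians of 2.08 and 1.51 RPKM, over 24 and 16 genes. The difference was 0.44 on the log2(RPKM + 0.1) scale and 0.26 per kilobase of exon. By residue, the median of H3K4 writers was 2.89 RPKM and that of H3K4 erasers 3.16 RPKM, and per kilobase of exon 7.11 and 14.3. The difference of writers minus erasers on the log2(value + 0.1) scale was -0.12 in RPKM and lay at the limit of 2-fold per kilobase of exon, but was -0.86 with the RefSeq span and 0.06 with no length. For H3K9 the medians were 1.51 (writers) and 1.60 RPKM (erasers), and 11.0 and 7.84 per kilobase of exon. For H3K27 they were 1.49 and 4.45 RPKM, and 12.2 and 12.7 per kilobase of exon. The medians of the log2 values differed by -0.60 in RPKM and -0.26 per kilobase of exon, both short of the limit. With 2 genes in a class, a median of log2 values is not the log2 of the median. The RPKM medians themselves were more than 2-fold apart. For H3K36 they were 1.90 and 1.35 RPKM, and 13.2 and 11.1 per kilobase of exon. Kdm4a, Kdm4b and Kdm4c, which also act on H3K36, were counted only under H3K9. With them, the H3K36 eraser median would be 1.42 RPKM (Kdm2a), below the writers, but 14.0 per kilobase of exon (Kdm2b), above them. Each H3K27 class holds only 2 genes, and Kdm6b at 8.40 RPKM is the only one of the 4 above 3 RPKM. Kdm7a, which also acts on H3K27, was counted only under H3K9, at 0.546 RPKM and 3.81 per kilobase of exon. With it, the H3K27 eraser medians would be 0.546 RPKM and 7.04 per kilobase of exon (Kdm6a), below those of the writers.

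The span of a gene went with many of these orders. Across the 59 genes, Spearman's rho between span and deposited RPKM was -0.37, and between span and level per kilobase of exon 0.09. These are given as a description because RPKM is itself taken to be divided by span. Over 17140 protein-coding genes above 0 they were -0.23 and 0.07. The 20 shortest genes had a median of 2.96 RPKM and 6.86 per kilobase of exon, and the 19 longest 1.19 RPKM and 10.4 per kilobase of exon. The enzymes are long genes, with a median span of 44.0 kb against 18.7 kb over protein-coding genes and median exon lengths of 6.80 and 3.67 kb.

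**Figure D3:**
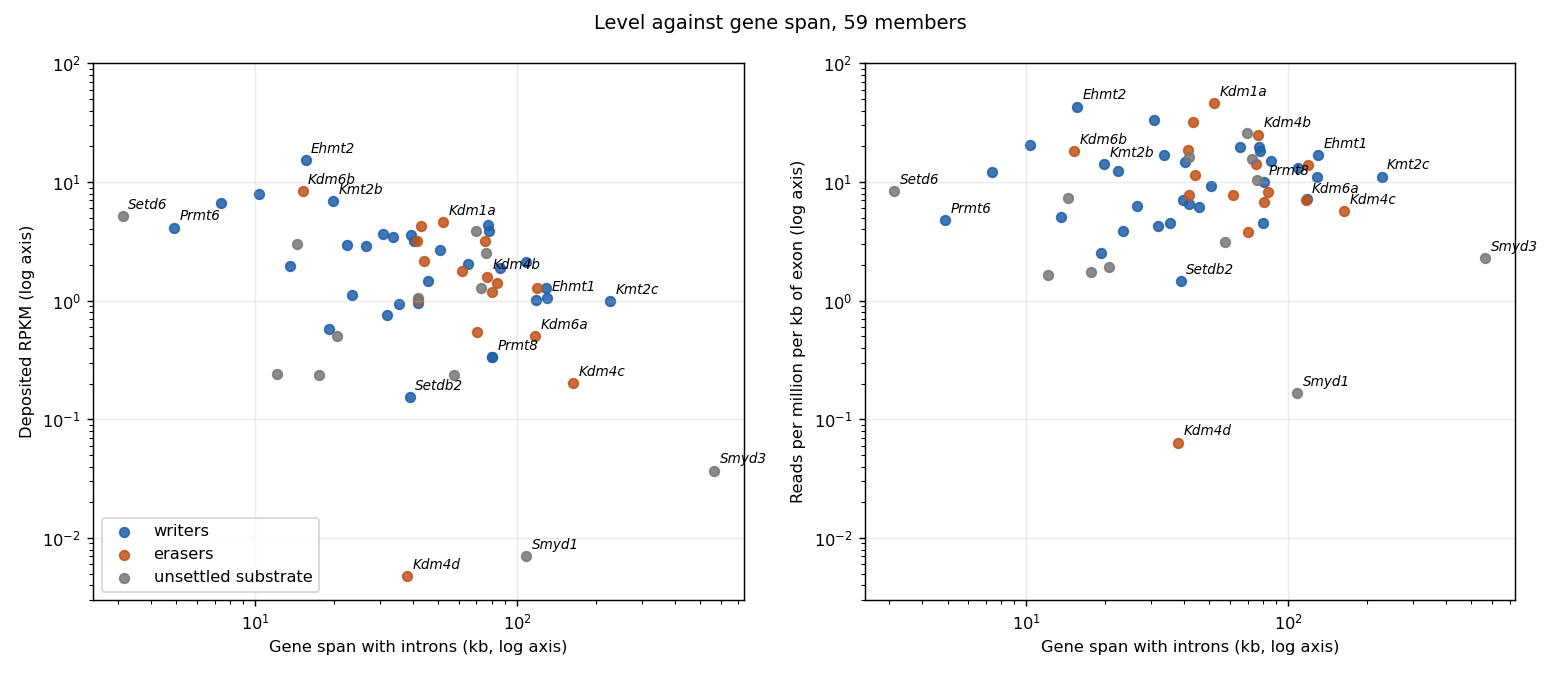
Level of each of the 59 genes against gene span with introns in kilobases, with deposited RPKM on the left and RPM per kilobase of exon on the right, all axes log; colours mark writers, erasers and genes of unsettled substrate. On the left the points run down from Ehmt2, Kdm6b and Setd6 among short genes to Smyd3 at 566 kb (rho -0.37), and on the right they do not (rho 0.09).

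Paralogs that act on the same residue were compared in 21 pairs. As deposited, 17 of 21 (81%) were 2-fold or more apart, against 68.1% of all 1711 pairs among the 59 genes. Per kilobase of exon there were 11 of 21 (52.4%), against 58.7% of all pairs, and these 11 were apart on both scales. The shares thus lay near those of any pair of these genes. Those apart on both scales included Setdb1 over Setdb2, Kdm4a and Kdm4b over Kdm4c, Kdm1a over Kdm1b, Ezh2 over Ezh1, Ehmt2 over Ehmt1, Kdm6b over Kdm6a and Nsd2 over Nsd3 (4.29 and 2.76). Suv39h1 over Suv39h2 was at the limit per kilobase of exon (3.38 and 2.00), and Kdm5a was below Kdm5b (0.377 and 0.473) and below Kdm5c (0.377 and 0.367). The order turned with the length scale in 3 pairs, Kmt2a and Kmt2b (0.566 and 1.28), Kmt2d and Kmt2c (3.60 and 0.639) and Kdm2a and Kdm2b (1.11 and 0.590).

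**Figure D4:**
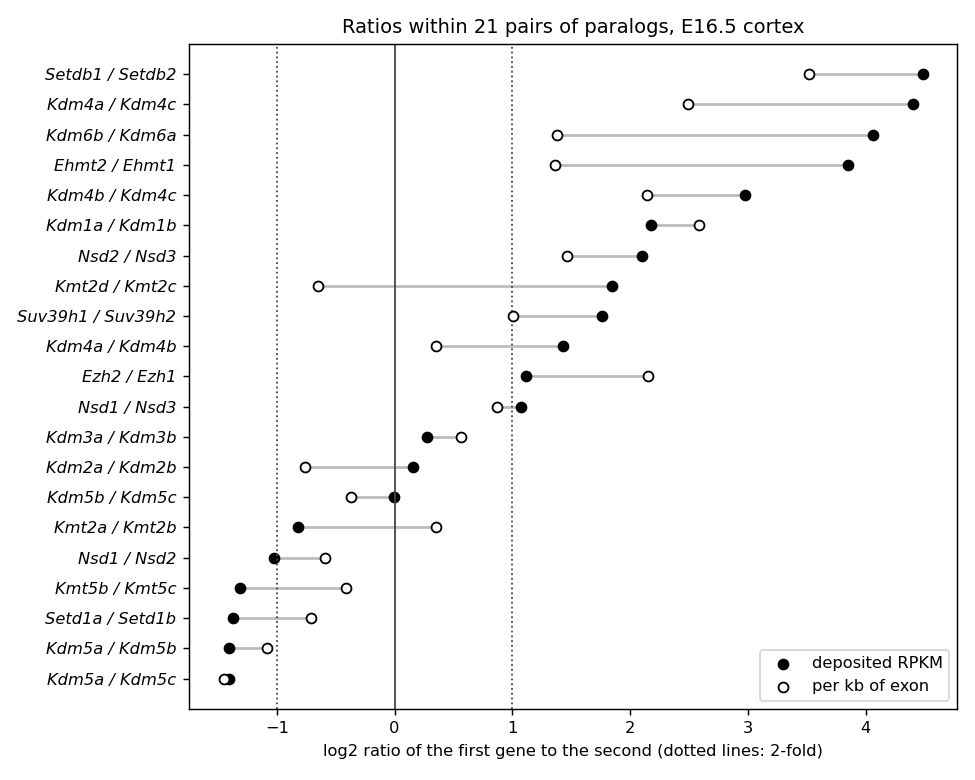
Log2 ratio of the first to the second gene in 21 pairs of paralogs; filled points are deposited RPKM, open points values per kilobase of exon, and dotted lines mark 2-fold. The filled points of Ehmt2 over Ehmt1 and Kdm6b over Kdm6a lie far to the right of their open points (14.4 against 2.57 and 16.7 against 2.60), and the points of Kmt2d over Kmt2c lie on opposite sides of 0.

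Of the partners of these enzymes, listed by complex, 31 of 43 (72.1%) reached 1 RPKM, and their median was 2.50 RPKM. COMPASS, which carries the H3K4 methyltransferases, had 8 of 10 at 1 RPKM or more, from the CpG-binding subunit gene Cxxc1 at 13.2 to Dpy30 at 0.784 RPKM. Per kilobase of exon these genes stood close, at 18.1 and 16.7, with Wdr82 highest of the list at 28.2 and Paxip1 lowest at 4.76. PRC2, around Ezh1 and Ezh2, had 6 of 10, from the histone-binding subunit gene Rbbp4 at 7.79 to Phf19 at 0.267 RPKM. The partners of Kdm1a had 4 of 8, from the corepressor gene Rcor2 at 17.4 to its paralog Rcor3 at 0.346 RPKM. Readers and partners of H3K9 methylation had 7 of 7, from Trim28 at 52.6 to Mphosph8 at 1.44 RPKM. The partners of Dot1l had 2 of 4, from Mllt6 (5.19) to Mllt10 (0.303), and those of Prmt5 had 4 of 4, from Wdr77 (3.18), its obligate cofactor, to Riok1 (1.13 RPKM). Of 13 enzymes of the same families with other names, 7 reached 1 RPKM, from Prdm8 at 9.63 to Mecom at 0.00348 RPKM.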

How the data were processed

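The authors deposited 1 column of RPKM values, the mean of the embryonic cortex libraries per the file headers, of which the labels list 3. Per the submitters' processing notes, the genome build was mm9 (NCBIM37), and the tools named, without a role for each, were DESeq 1.16.0, HTSeq 0.6.0, Cuffdiff 2.0.2, TopHat2 2.0.9 and Bowtie2 2.1.0. How strand, intronic reads and shared reads were treated is not stated there.

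Symbols, spans and exon lengths (union of exons) came from GENCODE M21, on a later build, for 32938 of the gene IDs. The 5053 other IDs held 2.3% of the summed RPKM. The span the authors used for a single gene is not known, and 6 of the 59 genes differ by over 5% in span between GENCODE and RefSeq. Reads were estimated as RPKM times span times summed depth, and intervals are 95% Poisson intervals. The recovery of depth was tested on simulated data. A value per kilobase of exon is RPKM times span over exon length. Differences between groups are those of medians taken over log2(value + 0.1), and differences of 2-fold or more (1 on that scale) were called. In a class with an even number of genes they can depart from the gap between the printed medians. Genes whose exons overlap those of another gene by over 10% are named as such. All 59 genes are named, and of each partner list the highest and the lowest in RPKM, with a few others per kilobase of exon. Members, residue classes, pairs and lists were chosen with earlier results of these data known. Promoter windows came from RefSeq (GRCm38.p6), and 13 genes had no entry. Computation used Python 3.11.15, pandas 2.3.3, numpy 2.4.6, scipy 1.17.1 and matplotlib 3.10.9.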

Additional observations from a re-analysis of the deposited data

How the results depend on the processing

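No replicate could be left out, because the 3 libraries were given as 1 mean, and no value here carries the spread between embryos. No paired analysis was possible because no column of a single library was used. The count at 1 RPKM or more (41 of 59, 69.5%, against 31.6% of protein-coding genes) was 57 at 1 per kilobase of exon (96.6%, against 54%). It was 49 at a threshold of 0.5 RPKM and 26 at 2 RPKM. The share of protein-coding genes was not taken at these 2 thresholds. The 2 counts therefore show only how the number moves with the threshold. The difference between the enzymes and protein-coding genes (2.44) was 1.10 with a pseudocount of 1, 2.85 with 0.01, 2.48 per kilobase of exon, 3.78 with no length (RPM) and 0.49 among genes at 0.1 RPKM or more. The difference between lysine writers and erasers (0.44) was 0.30, 0.46, 0.26, 0.19 and 0.36 in the same order, and 0.44 with the genes of unsettled substrate added. The difference between arginine and lysine methyltransferases (-1.05) was -0.66, -1.12, -0.83, -2.27 and -1.05, so it was short of the limit with a pseudocount of 1 and per kilobase of exon. The number of pairs 2-fold or more apart (17) was 11 per kilobase of exon and 12 with no length. Among pairs 2-fold or more apart as deposited, Kmt2d over Kmt2c (3.60) turned to 0.639 per kilobase of exon and 0.628 with no length. Kmt5b over Kmt5c (0.403) turned to 2.77 with no length. Pairs closer than 2-fold as deposited also turned with no length. They were Kmt2a over Kmt2b (0.566 to 2.22), Kdm2a over Kdm2b (1.11 to 0.784), Kdm3a over Kdm3b (1.21 to 0.863) and Kdm5b over Kdm5c (0.998 to 1.81). With the RefSeq span for values per kilobase of exon, chosen after seeing the data, the differences in the above order were 2.53, 0.27 and -0.88, the pairs apart were 11 and Kmt2d over Kmt2c was 0.685. With Carm1 added, also chosen after seeing the data, the arginine difference was -0.65. Counting error was above 10% only for Kdm4d and Smyd1.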
